A study of Rattus norvegicus with 8 samples.

Results

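The genes described are those of the cytosolic ribosome, taken as every row of the authors' deposited table whose gene symbol begins with Rpl or Rps and continues with a number, with a, or with p and a number, leaving out the Rps6k kinases. The rule found 88 of 15115 rows, 53 with large-subunit names (Rpl) and 35 with small-subunit names (Rps). The 88 rows carry 85 symbols, because Rpl21, Rps27a and Rps4x each have a pair of rows. Of the 88 rows, 69 bear a standard subunit name, 12 a paralog name such as Rpl22l1, and 6 a pseudogene name such as Rps21-ps1. The remaining row, Rps19bp1, encodes a protein named for binding Rps19 and is not a subunit. A standard name list of 77 subunits had at least 1 row for 66 of them, and Rpl7a, Rpl35a, Rpl36, Rpl37, Rpl38, Rplp2, Rps6, Rps9, Rps13, Rps19 and Rps26 were not analysed here.

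RNA came from the livers of 8 male Fischer 344 (F344) rats, labelled as wild type and 1 year old. All 8 ate the CDAA diet, which lacks choline, holds amino acids in place of protein and is used to bring about fatty liver and liver tumours in rats. For 4 of them, named CDAA_PTS, it was mixed with pterostilbene, a plant stilbenoid, at 1.34 g per kg of diet, and the other 4, named CDAA, had no pterostilbene. The study ran for 60 weeks with 6 rats per group, its first 3 weeks were on the choline-sufficient diet, with the compound already added for the CDAA_PTS rats, and rats were housed in pairs. Liver pieces in the study were tumour, nodule or normal tissue, and no label used here says which of these a library came from. The hepatocyte markers checked were all found, 10 of 10, from 538 CPM (counts scaled to a common library size, as a mean over all libraries) for Hnf4a to 107899 CPM for Alb in the authors' deposited table. In whole liver, fewer cells of a type and less RNA per cell cannot be told apart.

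Ribosomal proteins coat the ribosomal RNA of the small subunit, which reads the mRNA, and of the large subunit, which joins amino acids. The proteins are made in matched amounts, and their mRNAs are known for beginning at a cytosine followed by a run of pyrimidines, the terminal oligopyrimidine (TOP) motif, through which the kinase mTOR and the RNA-binding protein Larp1 control their translation. Liver cells, which export large amounts of plasma protein, are rich in ribosomes, and Myc is a textbook activator of ribosome production.

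The start regions are shown first, because a pyrimidine run at the start is the feature these genes are known to share. Promoter sequences of NCBI RefSeq, assembly GRCr8, were matched by symbol and chromosome for 54 of the 88 rows, 48 of them with standard names. Each line gives 30 bases, 5′ to 3′ on the gene's strand, in which the base numbered 16 is the RefSeq start, and capitals mark a run of at least 5 C or T letters that comes within 5 bases of that start. The set holds genes with high levels, the row with the lowest adjusted p (Rps2), genes without a run, and the Rpl22 pair.
Rpl10, chrX:157205835-157205864, plus strand: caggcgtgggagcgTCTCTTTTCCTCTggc
Rpl37a, chr9:81748076-81748105, plus strand: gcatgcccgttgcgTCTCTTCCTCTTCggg
Rpl19, chr10:83519049-83519078, plus strand: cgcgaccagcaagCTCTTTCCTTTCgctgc
Rplp0, chr12:46718376-46718405, minus strand: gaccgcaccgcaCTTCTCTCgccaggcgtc
Rpl34, chr2:221962269-221962298, minus strand: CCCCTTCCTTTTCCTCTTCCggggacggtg
Rps27, chr2:177964592-177964621, minus strand: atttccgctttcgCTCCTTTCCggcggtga
Rps7, chr6:50999431-50999460, minus strand: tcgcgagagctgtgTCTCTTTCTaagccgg
Rps2, chr10:14251833-14251862, plus strand: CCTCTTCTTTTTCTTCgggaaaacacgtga
Rps12, chr1:23500060-23500089, plus strand: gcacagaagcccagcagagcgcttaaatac
Rps27l, chr8:76443643-76443672, plus strand: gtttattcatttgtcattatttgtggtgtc
Rpl22, chr5:168117946-168117975, plus strand: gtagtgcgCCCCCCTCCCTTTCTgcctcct
Rpl22l1, chr2:113683181-113683210, plus strand: gctccgtggatatccggttccgagttgcgc

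A run was present at 39 of the 48 standard-name starts (81.2%), against 29.3% of 33469 rat promoters. Such a run can lie before the start or beside a start base other than C, so this is not a count of TOP motifs. The start base was C in 54.2% of the standard-name genes and 24.1% of all promoters. The run was found at 26 of 31 large-subunit and 13 of 17 small-subunit starts. The 9 standard-name genes without it were Rpl6, Rpl11, Rpl18, Rpl26, Rpl41, Rps3, Rps12, Rps16 and Rpsa. In Rps3 and Rpsa a run lies farther before the RefSeq start, outside the limit of 5 bases. Lack of a run here therefore refers to the RefSeq start, and other start positions were not examined. Of the 5 paralog names with a sequence, only Rps4y2 had a run. Within the 300 bases of each promoter, on either strand, CCGGAA (the core bound by ETS factors such as Gabpa) was found in 54.2% of the standard-name genes and 15.0% of all promoters. GGGCGG, the core bound by Sp1, was found in 54.2% against 33.1%, AAGATGG, bound by Yy1, in 12.5% against 7.01%, and TATAAA, the TATA box, in 12.5% against 14.2%. These are letter matches and not measured binding. In the authors' deposited table the 39 genes with a run had a median edgeR log2 fold change of -0.03 and the 9 without it -0.05. The medians thus lay close together. No gene of either set was called at an edgeR adjusted p under 0.05, as 3.41% of all genes were. In sets of this size, no calls is near that share.

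No ribosomal protein gene differed between the diets at an adjusted p under 0.05 in the edgeR block of the authors' deposited table, where 3.41% of all genes did (516 of 15115). Fold changes are given throughout as CDAA_PTS over CDAA. At an unadjusted p under 0.05 the edgeR block held 5 of the 88 rows, or 5.68% against 14.6% of all genes, and all 5 were lower with pterostilbene, as were 7.86% of all genes. The DESeq2 block of the authors' deposited table called 0 of the 77 rows that have an adjusted p (background 4.46%), with 6 at an unadjusted p under 0.05 against 14.3% of all genes. The Cuffdiff block of the authors' deposited table called 1 of the 77 rows it tested, Rpl39l, against 5.51% of all genes tested, with 6 at an unadjusted p under 0.05 against 14.9%. By each of the 3 tools the share of ribosomal protein rows called was below that of all genes. At such background shares few calls fall in a set of 88 rows, and the difference in share was not tested.

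The median edgeR log2 fold change of the 88 rows was -0.05, and that of all genes 0.006, in the authors' deposited table. More rows lay below 0 than above it, 57 against 31 (64.8% below), where 49.0% of all genes lay below. Among the 50 rows above the median level of all genes (12.9 CPM), where estimates are more precise, log2 fold changes ran from -0.32 to 0.16 in the deposited table, none called (background 4.41%), with 34 below 0 (68.0%, against 50.6% of all genes at those levels) and 46 within 0.2 of 0. The members can share reads and come from the same libraries, so these counts are a description and no test was made of them.

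**Figure D1:**
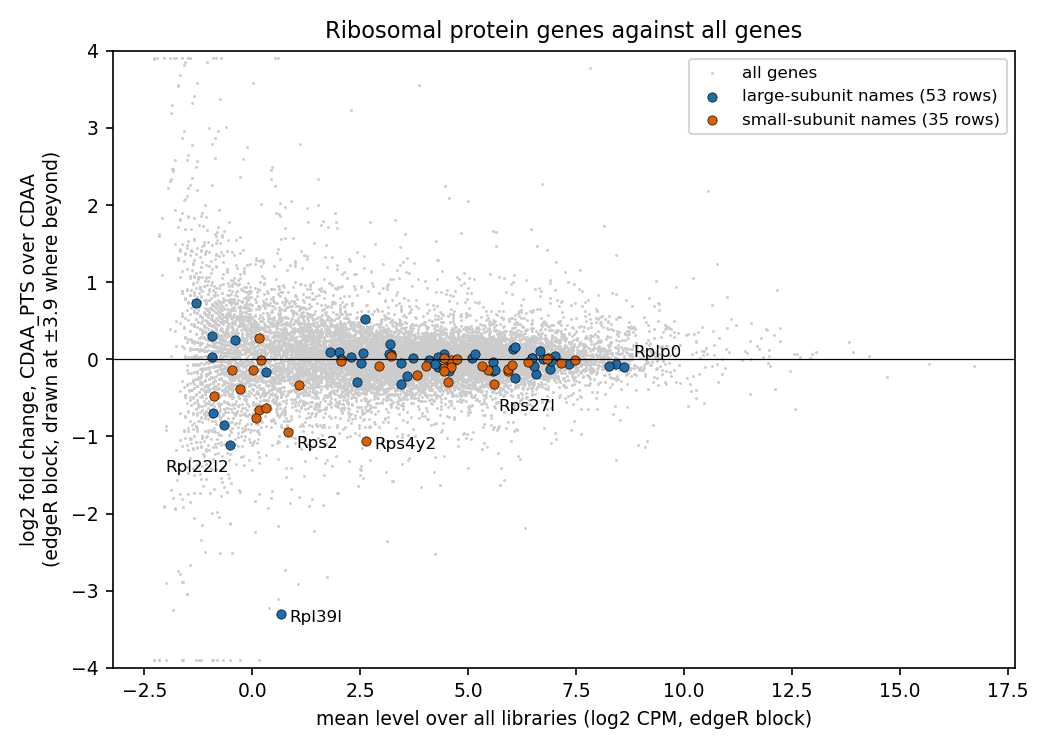
Each point is a row of the authors' table, with its mean level (log2 CPM over all libraries, x axis) and its edgeR log2 fold change, CDAA_PTS over CDAA (y axis), for all genes in grey, large-subunit names in blue and small-subunit names in orange. Above the median level the ribosomal protein rows sit in a band from -0.32 to 0.16, and the wider changes, led by Rpl39l at -3.31, are at low levels.

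The standard errors of the deposited DESeq2 block give an interval for the size of each change. For each of the 50 rows above the median level, the 95% interval made from that block (log2 fold change ± 1.96 SE) lay within a change of 1.5-fold in either direction, with bounds from -0.55 to 0.36. These bounds hold for the DESeq2 block only, and no interval was made from the edgeR block. Rps27l, with the lowest bound, had a log2 fold change of -0.28 by DESeq2 and -0.32 by edgeR. No such bound is given for the 38 lower rows, because DESeq2 fold changes in the deposited table lay nearer 0 than the edgeR values there: the ratio of the DESeq2 to the edgeR value had a median of 0.917 above the median level and 0.438 at or below it. By edgeR 3 of the lower rows, Rpl22l2, Rpl39l and Rps4y2, were beyond 2-fold in the deposited table. The intervals of 6 rows left out 0, those of Rpl8, Rpl11, Rpl14, Rps2, Rps10l1 and Rps27l. All lay on the lower side, with DESeq2 adjusted p from 0.117 to 0.313. These are the 6 rows at an unadjusted DESeq2 p under 0.05, a threshold met by 14.3% of all genes. Rpl8 and Rps2 are among the 38 lower rows.

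**Figure D2:**
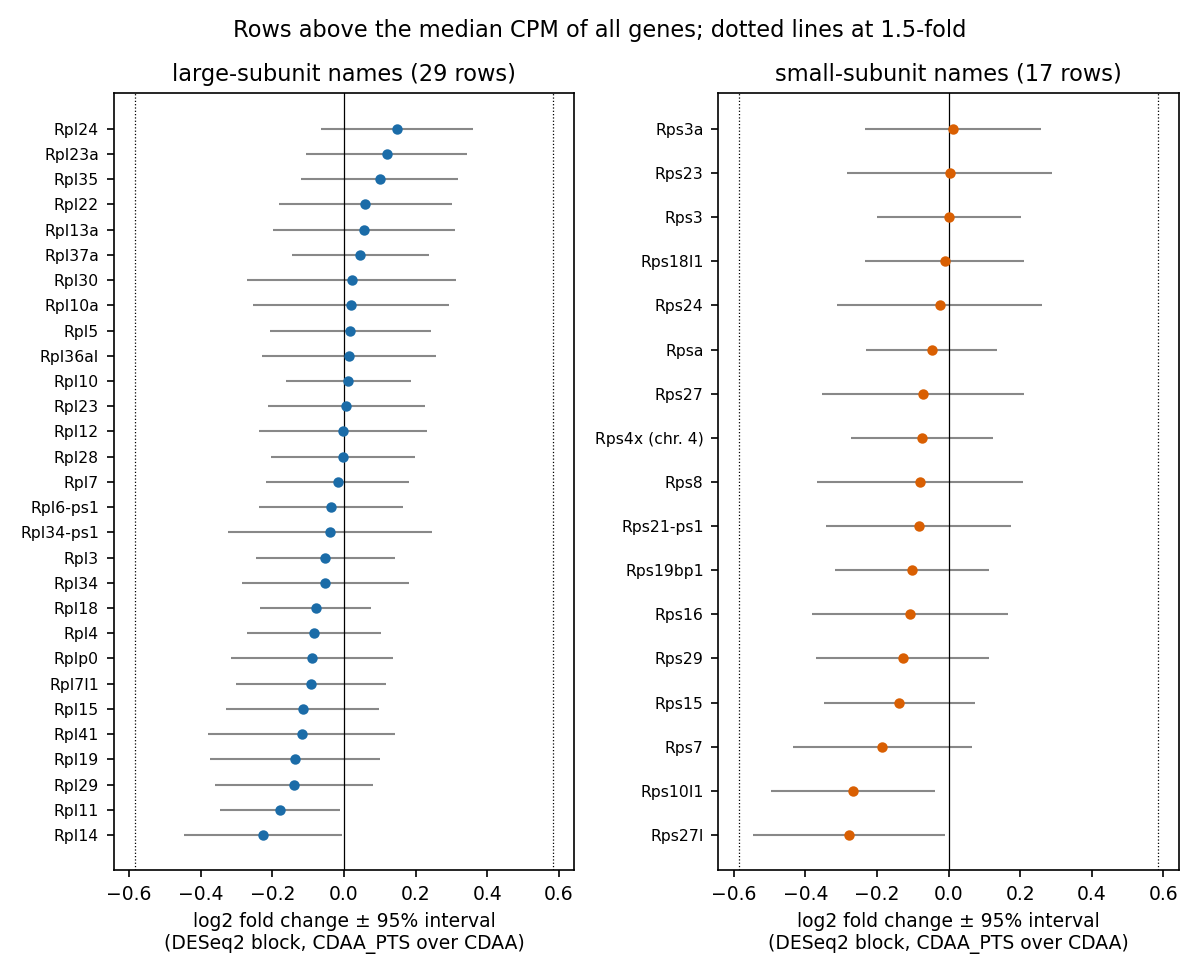
Log2 fold change with its 95% interval from the authors' DESeq2 block (x axis, CDAA_PTS over CDAA) for 46 of the 50 rows above the median CPM of all genes, 29 with large-subunit names and 17 with small-subunit names, in order of size. Every interval drawn lies between the dotted lines at 1.5-fold, and those of Rpl11, Rpl14, Rps10l1 and Rps27l end below 0.

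The large-subunit rows were centred near 0 and the small-subunit rows slightly below it. In the authors' deposited table the 53 large-subunit rows had a median edgeR log2 fold change of -0.003, with 28 below 0 and 25 above. The 35 small-subunit rows had a median of -0.11, with 29 below 0 (82.9%) and 6 above. The gap between the medians was 0.11 with edgeR, 0.076 with DESeq2 and 0.11 with Cuffdiff in the deposited table. Among rows above the median level it was smaller, with medians of -0.03 for 30 large-subunit rows (18 below 0) and -0.09 for 20 small-subunit rows (16 below 0). The ribosome of the mitochondrion, whose proteins are also encoded in the nucleus, had the opposite order in the same table, with medians of -0.07 for 43 Mrpl rows and 0.002 for 29 Mrps rows. Above the median level the mitochondrial medians were -0.12 for 31 Mrpl rows (26 below 0) and 0.0002 for 24 Mrps rows (12 below 0), so that gap was wider there. No gap between subunits was tested.

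**Figure D3:**
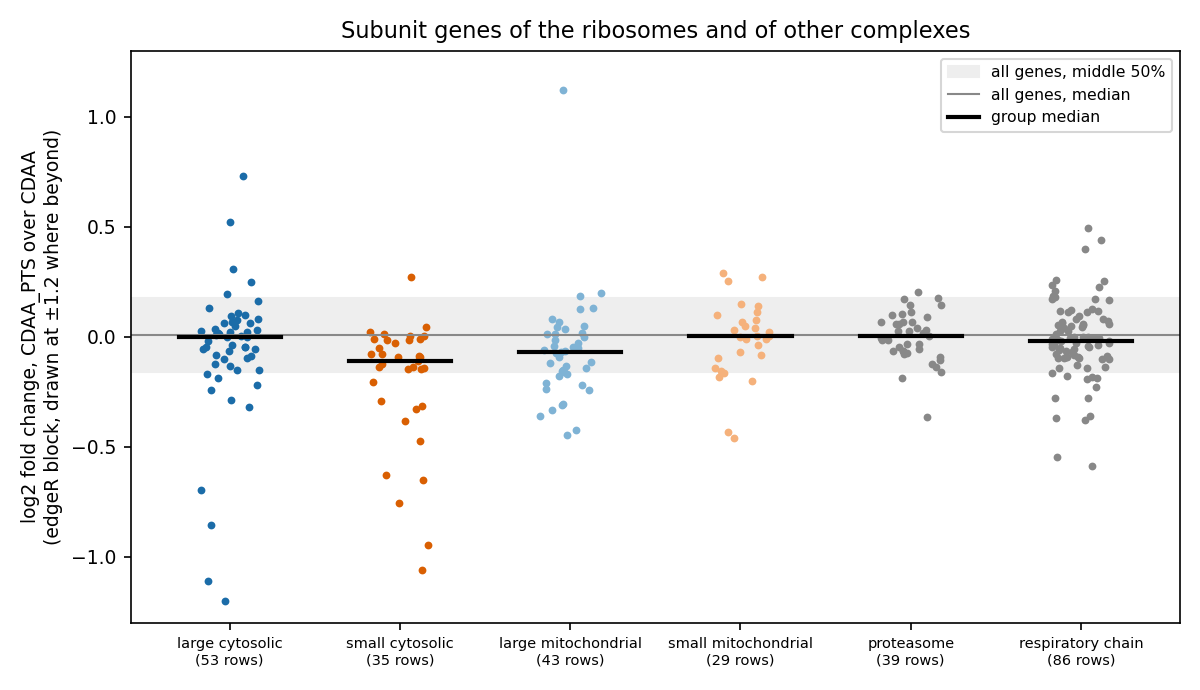
EdgeR log2 fold changes from the authors' table (CDAA_PTS over CDAA, y axis) for rows of the cytosolic and mitochondrial ribosome, the proteasome and the respiratory chain, with a black bar at each group's median and the middle 50% of all genes shaded in grey. The small cytosolic subunit has its median at -0.11, the large mitochondrial subunit at -0.07, and the other 4 groups lie between -0.02 and 0.002.

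Among large-subunit genes, Rpl19, Rplp0, Rpl35 and Rpl3 were among the highest in FPKM. By CPM Rpl19 was not among them, at 48.0 against 392 for Rplp0. The authors' deposited table gave Rplp0, the base of the stalk that recruits translation factors, 379 FPKM (fragments scaled to transcript length and library size) in CDAA_PTS and 402 in CDAA, with an edgeR log2 fold change of -0.10 (adjusted p 0.845). Rpl3, next to the peptidyl transferase centre, had 279 and 293 FPKM in the deposited table. Rpl35, near the exit of the peptide tunnel, had 376 and 347 FPKM, the higher value being that with pterostilbene. These are group values, 1 for each diet, so the spread between rats and any overlap of the groups cannot be given. Rpl5 and Rpl11, which bind the ribosome's small 5S RNA and when free can block Mdm2, the inhibitor of p53, were not called. The authors' deposited table gave Rpl5 87.4 and 85.7 FPKM in CDAA_PTS and CDAA (edgeR log2 fold change 0.02, adjusted p 0.991), and Rpl11 230 and 260 FPKM (-0.19, adjusted p 0.435).

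The lowest log2 fold changes of large-subunit rows with at least 1 CPM were those of Rpl39l, Rpl8, Rpl31, Rpl14 and Rpl22l1. Rpl8, a core protein of the peptidyl transferase centre, had 13.4 FPKM in CDAA_PTS and 16.6 in CDAA in the authors' deposited table, an edgeR log2 fold change of -0.32 (adjusted p 0.328), and its locus overlaps that of Camsap1. Rpl14 had 106 and 126 FPKM in the deposited table, or -0.24 on the log2 scale by edgeR (adjusted p 0.356). Rpl31, whose locus overlaps Tbc1d8, had 3.85 and 4.74 FPKM there and -0.29 (edgeR adjusted p 0.520). At the other end were Rpl10l, Rpl32, Rpl24, Rpl23a and Rpl35, with edgeR log2 fold changes from 0.11 to 0.52 in the deposited table and none called. The highest of these, Rpl10l, known in mouse as a testis copy of Rpl10, had 11.9 and 8.52 FPKM (edgeR adjusted p 0.744). Rpl24 had 185 and 165 FPKM in the deposited table, or 0.16 on the log2 scale by edgeR (adjusted p 0.609).

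Rpl39l is the one row called by any tool. It is a paralog of Rpl39, a small protein lining the peptide exit tunnel, and is known in mouse and human for expression in male germ cells. The authors' deposited table gave Rpl39l 0.712 FPKM in CDAA_PTS and 6.45 in CDAA, at a mean of only 1.58 CPM. Its log2 fold change there was -3.31 with edgeR (p 0.0067, adjusted p 0.115), -3.18 with Cuffdiff (adjusted p 0.0049), and -0.21 ± 0.12 (SE) with DESeq2 (adjusted p 0.390). Direction was the same in the 3 blocks, but size and call were not, and whether 1 rat carries the difference was not tested, since no value per rat was used. Rpl39 itself had 7.18 and 6.61 FPKM in the deposited table (edgeR log2 fold change 0.03, adjusted p 0.996), so the paralog was near its partner's level in CDAA and below it in CDAA_PTS. The difference between the pair was not tested.

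Among small-subunit genes, Rps29, Rps24 and Rps3 were among the highest in FPKM. The authors' deposited table gave Rps29 346 FPKM in CDAA_PTS and 380 in CDAA. Rps24, in which mutations cause Diamond-Blackfan anaemia in humans, had 203 and 210 FPKM in the deposited table. Rps3, at the mRNA entry channel, had 155 and 156, and Rpsa, at the mRNA exit and also known as a laminin receptor, 146 and 150. The edgeR log2 fold changes of Rps29, Rps24, Rps3 and Rpsa in the deposited table lay between -0.14 and 0.0013, with no adjusted p under 0.712.

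The lowest small-subunit log2 fold changes were those of Rps4y2, Rps2, Rps21, Rps15-ps2 and Rps10. Rps2, a protein of the mRNA entry side, had the lowest adjusted p of all 88 rows and was the only one under 0.10, as were 5.27% of all genes. The authors' deposited table gave it 0.559 FPKM in CDAA_PTS and 1.75 in CDAA at 1.78 CPM, with a log2 fold change of -0.95 by edgeR (p 0.0044, adjusted p 0.0896) and -0.55 ± 0.21 (SE) by DESeq2 (adjusted p 0.117). Rps21 had 0.821 and 1.09 FPKM (edgeR adjusted p 0.389) and Rps10 1.05 and 1.68 FPKM (edgeR adjusted p 0.413) in the deposited table. These rows are at or under 1.78 CPM, where the row of the standard name holds few reads. Among the highest small-subunit values were those of the pair of Rps27a rows, Rps3a and Rps23, from 0.0036 to 0.27 by edgeR in the deposited table.

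The summed level of the ribosomal protein rows was close in both diets. They held 2.25% of all FPKM in CDAA_PTS and 2.39% in CDAA, as summed from the authors' deposited table. Most of that came from Rpl19, listed at 11676 and 12858 FPKM, 17th of all genes by FPKM, but at 48.0 CPM, 3066th of all genes by CPM. Without Rpl19 the shares were 0.805% and 0.824%. The deposited table lists Alb at 0 FPKM in both groups beside its 107899 CPM, so the sum of FPKM lacks the most abundant liver mRNA. By CPM, which counts Alb, the 88 rows held 0.402% over all libraries. The median FPKM of a member was 34.3 in CDAA_PTS and 35.4 in CDAA in the deposited table, against 6.39 and 6.49 for all genes.

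The listed levels spread widely, although the ribosome holds its proteins in matched amounts. How reads that fit several copies of a gene were assigned is not stated, so a low listed value need not mean little mRNA. Of the 69 standard-name rows in the authors' deposited table, 23 were at 100 FPKM or more in both groups, and 12 were under 1 FPKM in both. The lowest large-subunit rows were both rows of Rpl21, Rplp1, Rpl36a and Rpl13, and the lowest small-subunit rows included Rps12, Rps14, Rps28 and Rps20. Rplp1, a stalk protein, is listed at 0 FPKM in CDAA_PTS and 0.213 in CDAA in the deposited table, and 1 of the Rpl21 rows is listed at 0 in both. For most rows FPKM and CPM went together, with a median of 1.54 FPKM per CPM and a middle range from 0.903 to 2.49. Besides Rpl19, a clear departure was the other Rpl21 row, with 0.700 and 0.447 FPKM beside 5.91 CPM, in the deposited table.

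**Figure D4:**
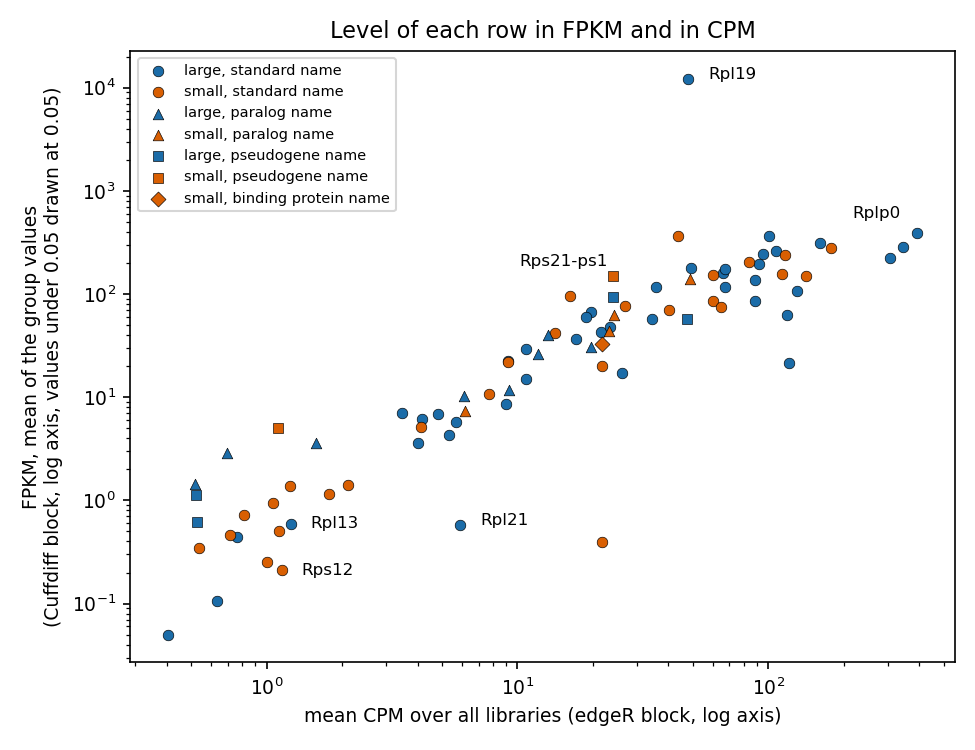
Level of each of the 88 rows in the authors' table as mean CPM over all libraries (x axis) and as the mean of the FPKM values of the groups (y axis), both on log axes, by subunit (colour) and kind of name (marker). Most rows follow 1 line, Rpl19 stands far above it at 48.0 CPM, and Rpl21 is among those below it.

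In several families the row with the paralog or pseudogene name had the higher FPKM. Of 19 families with more than 1 row, this was so in 8 by FPKM, and in 7 of these also by CPM, which is not scaled to length. The authors' deposited table gave Rps21-ps1 154 FPKM in CDAA and Rps21 1.09, a 142-fold gap. Rpl36al had 39.5 against 0.401 for Rpl36a, Rps10l1 48.5 against 1.68 for Rps10, and Rpl6-ps1 58.4 against 5.90 for Rpl6 in the deposited table. Rps18l1, Rpl34-ps1 and Rps27l exceeded their partners by 5.24-fold, 1.46-fold and 1.61-fold in FPKM in CDAA. Rpl7l1 was 1.45-fold above Rpl7 in FPKM but below it in CPM, at 19.7 against 121 in the deposited table, so the order of this pair rests on the unit. Ribosomal protein genes have many processed copies: RefSeq for GRCr8 lists 869 pseudogenes and 306 protein-coding genes whose names fit the rule. The sources used here do not say how reads that fit several copies were assigned, so the split of reads between like-named rows is uncertain. Further, the loci of 27 of the 88 rows overlap another row of the table, 21 of them a small nucleolar RNA, a class that many ribosomal protein genes carry in their introns.

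**Figure D5:**
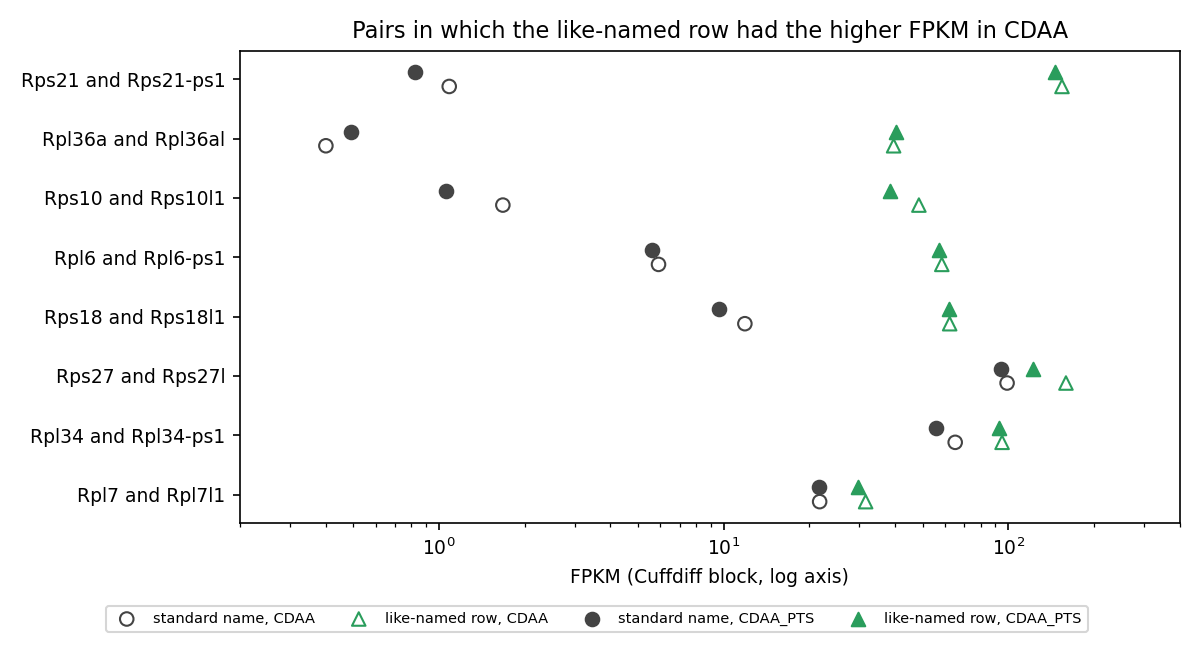
FPKM from the authors' table (x axis, log) for the 8 families in which a paralog or pseudogene name (triangles) was above the standard name (circles), with CDAA_PTS filled and CDAA open. The gap in FPKM runs from 1.45-fold for Rpl7, the one pair whose order turns by CPM, to 142-fold for Rps21 in CDAA.

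None of the paralog rows other than Rpl39l was called by any tool. Rps27l, known in humans as a p53 target gene, had 122 FPKM in CDAA_PTS and 159 in CDAA in the authors' deposited table (edgeR log2 fold change -0.32, adjusted p 0.304), and its partner Rps27 had 94.3 and 99.0 (-0.08, adjusted p 0.912). Rps10l1 had 38.5 and 48.5 FPKM there, with an edgeR log2 fold change of -0.29 (adjusted p 0.231). Rpl22l1, the paralog of Rpl22 whose start lacks the run shown above, had 24.5 and 27.5 FPKM (-0.22, edgeR adjusted p 0.477) and Rpl22 119 and 114 (0.07, edgeR adjusted p 0.915). Rpl22l2 and Rps4y2, at 0.699 and 6.19 CPM in the deposited table, had edgeR values of -1.11 and -1.06 on the log2 scale (adjusted p 0.358 and 0.392). By DESeq2 the values of Rpl22l2 and Rps4y2 were -0.34 and -0.28, and the locus of Rps4y2 overlaps that of Tmtc1. Rpl5l1, Rpl7l1, Rpl31l4, Rpl36al and Rps18l1 lay in that table between -0.10 and 0.06 by edgeR.

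Reads also split unevenly between rows of 1 symbol. The authors' deposited table gave the Rps4x row on chromosome 4 72.4 and 76.2 FPKM in CDAA_PTS and CDAA, and the row on the X chromosome 1.15 and 1.64. The Rps27a row on chromosome 5, whose locus overlaps Foxj3, had 22.2 and 22.0 FPKM, and that on chromosome 14 had 0.478 and 0.524. Rps27a is made as a fusion with ubiquitin. The main row of Rack1, a scaffold on the small subunit that lies outside the naming rule, had 162 and 179 FPKM in the deposited table (-0.15, edgeR adjusted p 0.690).

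Genes that make and control ribosomes were counted beside them from 7 lists. With 3.41% of all genes called by edgeR in the authors' deposited table, few or no calls in lists of this size are near the background. None of the 55 assembly factors was called by edgeR there (median log2 fold change 0.03). Nor was any of the 20 genes listed for the TOP class (median -0.05), which are translation factors such as Eef2 and others such as Vim. No call fell among the 22 genes that control translation of ribosomal protein mRNA (median 0.04) or the 10 promoter-binding factors (median -0.07). The same held for the ribosome parts outside the naming rule, such as Rack1. Of 17 genes of ribosomal RNA transcription, Myc fell, from 31.9 FPKM in CDAA to 15.1 in CDAA_PTS in the deposited table (edgeR log2 fold change -1.16, adjusted p 0.017; 1.95% of all genes were called lower), and the other 16 were not called. A list named for free ribosomal proteins and p53 had 13 genes, p53 targets such as Cdkn1a and others such as Heatr3. Of these 13, Cdkn1a, a cell cycle inhibitor, rose from 14.1 to 21.6 FPKM. Its edgeR log2 fold change was 0.73 (adjusted p 0.0026) in the deposited table, where 1.47% of all genes were called higher. The other 12 were not called. Over the 13 genes the median edgeR log2 fold change in that table was -0.13, with 9 below 0 and 4 above. Larp1, Mtor and Rps6kb1, which encodes the kinase of Rps6, gave 0.04, -0.09 and 0.02 as edgeR log2 fold changes there. DESeq2, which called 4.46% of all genes, called 2 genes of these lists that edgeR did not, both higher in CDAA_PTS in the deposited table: the translation factor Eif4a2 (DESeq2 log2 fold change 0.24 ± 0.07 SE, adjusted p 0.011) and Cnbp, which binds TOP mRNAs (0.30 ± 0.07 SE, adjusted p 0.0020).

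Genes named for other large complexes gave a scale for these counts. They were taken by the start of the gene name, which can also match assembly factors that are not subunits. In the authors' deposited table, where 1.95% of all genes were called lower, edgeR called 2 of 72 mitochondrial ribosomal protein rows lower, Mrpl12 (log2 fold change -0.45) and Mrps12 (-0.46), with a median of -0.04 and 44 rows below 0. It called 1 of 39 proteasome rows lower, Psmd8 (-0.37), with a median of 0.001, and 2 of 86 respiratory chain and ATP synthase rows, Cox6a1 (-0.38) and Cox8a (-0.59), with a median of -0.02. DESeq2 called 4 mitochondrial ribosomal rows in the deposited table, all lower, adding Mrpl38 (DESeq2 log2 fold change -0.33) and Mrps34 (-0.39), 1 proteasome row and 2 of the respiratory chain (4.46% of all genes). Cuffdiff called 1, 0 and 4 rows of the 3 groups there (5.51% of all genes). Whether the ribosomal protein rows differ from these groups was not tested. Of the marker lists of liver cell types, edgeR called 1 gene: Gpnmb, a gene of lipid-laden macrophages, fell with pterostilbene among 12 macrophage markers (edgeR log2 fold change -0.46, adjusted p 0.013 in the deposited table), and no marker of hepatocytes, T and NK cells, B cells, fibroblasts, cholangiocytes or dividing cells was called by edgeR. Cuffdiff in the deposited table also called the fibroblast genes Dcn (log2 fold change 0.58) and Lum (2.35) and the cholangiocyte gene Sox9 (0.54) higher, and the dividing-cell gene Mcm5 (-0.68) lower. Lum was at only 2.85 CPM, and its DESeq2 log2 fold change was 0.59, with no DESeq2 adjusted p. The DESeq2 adjusted p of Dcn was 0.215. B cell markers rest on 3 of 8 listed genes that have a row.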

How the data were processed

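The 1 file used is a comparison table that the authors deposited for 15115 genes, 4 CDAA_PTS against 4 CDAA rats. Per the file headers, the authors' table has a DESeq2, an edgeR and a Cuffdiff block. Per the labels' protocols, TruSeq libraries (Illumina) were made from total RNA. The submitters' processing notes name TopHat2, Cufflinks, FastQC, edgeR and DESeq2 with no version, and the build rn6. Which counting tool, model design and strand setting were used is not stated. From DESeq2 the authors' table holds a signal (mean count over libraries divided by size factors), log2 fold changes and their standard errors, and a Wald score. From edgeR the authors' table holds log2 fold changes and the mean CPM on a log2 scale. From Cuffdiff the authors' table holds 1 FPKM per group and their log2 ratio with its score. Each deposited block has a p-value, raw and adjusted. The depth of each library is unknown, and no value per rat was used.

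The quasi-likelihood test planned for counts could not be run, since the table has none. The edgeR p-values of the authors, adjusted over all genes, were read at 0.05, and no model was fitted here. CPM is 2 to the power of the deposited log2 CPM. Medians, counts, sums and 95% intervals were computed with pandas 2.3.3 and numpy 2.4.6, and figures with matplotlib 3.10.9, after the scripts were tested on simulated data. Of the 88 rows, 11 have a p from the authors' DESeq2 block but no adjusted p, and were kept as missing. Gene positions come from the deposited table. Start windows come from RefSeq promoters of GRCr8, another build, which hold 250 bases before and 50 after each start.

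The members and lists were chosen with earlier results of these data known. Named genes are those called in any block, the 5 highest and lowest in fold change (at least 1 CPM) and in FPKM in each subunit, all paralog names with their partners, rows sharing a symbol, a few fixed genes, and called genes of the other lists. Results for a few of these genes are not reported here. The authors' DESeq2 and Cuffdiff blocks, an adjusted p under 0.10, standard names only, CPM filters, re-centring, pseudocounts of 1 and 0.1, and other denominators served as alternatives. P-values measure variation between rats only as the authors' models estimated it.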

Additional observations from a re-analysis of the deposited data

How the results depend on the processing

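The number of ribosomal protein rows called was 0 by edgeR and DESeq2, with standard names only and with either CPM filter, and was 1 by Cuffdiff (Rpl39l) and 1 at an edgeR adjusted p under 0.10 (Rps2). The filter above the median CPM and the sums without Rpl19 were chosen after seeing the data. The median log2 fold change stayed between -0.06 and -0.05 under every alternative run, and the subunit medians kept their order in all 3 blocks. The share of FPKM, 2.25% in CDAA_PTS and 2.39% in CDAA, was 3.05% and 3.37% without the 10 highest rows, 3.12% and 3.32% without mitochondrially encoded rows, and 0.805% and 0.824% without Rpl19, so its size rests on the denominator and on 1 row.

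The 84 rows compared one by one had the same direction by edgeR and DESeq2. By Cuffdiff 8 of them had the opposite sign: Rps28 (1.08), Rps27a on chromosome 14 (-0.13), Rpl12 (0.024), Rps15a (0.016), Rps3 (-0.010), Rpl9 (-0.0080), Rpl26 (-0.0067) and Rpl28 (0.0025), and the cause was not tested. Rows near 1 CPM limit what can be shown for Rps2, Rps10, Rps12, Rps21 and Rpl39l. No paired analysis was possible because the deposited table used here holds no value per library, and leaving out each rat and the replicate block were not run for the same reason.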
